A study of Apis mellifera with 15 samples.

Results

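Nrx-1 and Abscam are honey bee genes for adhesion proteins of neurons, of the neurexin and the Dscam family. They were taken by symbol from the gene table and, with all transcripts listed under their names, from the transcript tables, which gave 2 of 12112 genes and 14 of 28276 transcripts. Both genes and 4 of the 14 transcripts passed the filters on low values, 1 transcript of Nrx-1 and 3 of Abscam.

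Messenger RNA from brains of adult worker honey bees (Apis mellifera), taken as foragers, was sequenced to ask how an oral dose of the neonicotinoid thiacloprid, an agonist of nicotinic acetylcholine receptors, changes gene expression in the brain. The 3 groups were a solvent control, thiacloprid at 25 ng/bee and thiacloprid at 250 ng/bee, with 5 libraries each. All bees came from a site without pollution, were kept in plastic bottles in the laboratory and were dosed through sucrose solution for 72 h. Each library is a pool of 5 dissected brains, so the replicate spread is that between pools, and neither single bees nor brain regions were resolved.

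Neurexins are adhesion proteins of the presynaptic membrane that bind neuroligins on the postsynaptic side and help to align the release machinery with the receptors. Proteins of the Dscam family carry immunoglobulin and fibronectin domains, bind copies of themselves and guide axons and dendrites to their partners. In the fruit fly, alternative exons of Dscam1 give neurons distinct surface identities, which makes the splicing of such genes of interest beside their level. Whether Abscam has such a role was not tested here.

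Nrx-1 lies on chromosome 5 of assembly Amel_HAv3.1, on the minus strand, from 2349284 to 2687281. Its only listed transcript, NM_001145740.1, has 20 exons and 3628 nt, so exons make up 1.07% of the 337998 bp locus. Abscam lies on chromosome 6, on the plus strand, from 1441501 to 1640226, a span of 198726 bp, and its 13 transcripts have 11 to 31 exons and 3526 to 11012 nt. Dscam is listed as a separate gene, on chromosome 4 with 51 transcripts, and was not counted as Abscam. The 4 genes that overlap Nrx-1 lie on the opposite strand and had at most 13.5 reads in any library, and the 1 gene that overlaps Abscam, also on the opposite strand, had at most 14.8 reads. The sources used here do not say whether reads were counted by strand.

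Library totals ranged from 9226059 to 11500655 counts among controls, from 8123655 to 10067138 counts after 25 ng/bee and from 6834898 to 29208991 counts after 250 ng/bee. The deepest library was replicate 1 at 250 ng/bee, against at most 11180170 in the other 250 ng/bee libraries. Its description starts with 20191023 where that of the other 14 starts with 20190809, and it stood apart from all others on the leading components of the expression values. The neuronal genes Para, a voltage-gated sodium channel, and Syt1, the calcium sensor of vesicle release, were present in every library, at summed levels of 404 to 681 CPM (counts relative to the library total, scaled by the trimmed mean of M-values). The glial glutamate transporter Eaat-2 was present at 180 to 391 CPM. Major royal jelly protein genes and others of a list best known from the head glands reached 35740 to 284300 CPM in sum, and the muscle gene list 90.6 to 1055 CPM.

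At the gene level, Nrx-1 averaged lower after the higher dose and Abscam stayed close to the control, and neither difference passed the threshold of an adjusted p under 0.05. Nrx-1 was a gene of low level, with 33 to 126 estimated counts per library and a mean of 1.85 FPKM (fragments relative to transcript length and library total), above 13.1% of the 9560 genes tested. Abscam had 605 to 1868 estimated counts and a mean of 8.15 FPKM, above 34.2% of the genes tested. The median tested gene had 15.1 FPKM. Per length, Abscam was therefore the higher of the pair in every library, at 6.0 to 12.4 FPKM against 0.945 to 2.95 FPKM for Nrx-1. At the depth of these libraries, counting error alone gave Nrx-1 a 95% Poisson half-width of 17.9% to 35.8% of its count, and Abscam one of 4.56% to 8.05%; both cover counting error only.

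Nrx-1 had 6.45, 13.3, 8.68, 9.10 and 8.93 CPM in control replicates 1 to 5. It had 7.17, 9.27, 8.57, 3.84 and 5.39 CPM in replicates 1 to 5 at 25 ng/bee. It had 5.58, 5.49, 5.44, 6.85 and 4.31 CPM in replicates 1 to 5 at 250 ng/bee. In 4 of the 5 libraries at 250 ng/bee Nrx-1 lay below every control library. The remaining library, replicate 4, lay above control replicate 1, so the groups overlapped. How many of all tested genes had 4 of 5 libraries so placed was not counted. The 25 ng/bee group held both the lowest of the 15 values and values inside the control range.

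**Figure D1:**
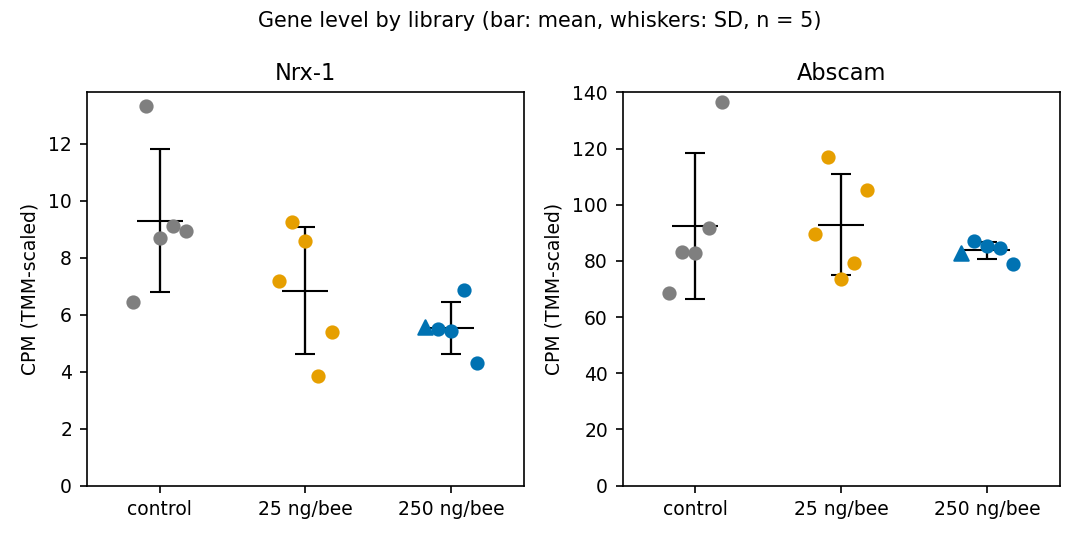
Level of Nrx-1 and Abscam in CPM (vertical axis, from 0) in each of the 15 libraries by dose (horizontal axis), with group means and SD; the triangle marks replicate 1 at 250 ng/bee. The Nrx-1 points at 250 ng/bee lie between 4.31 and 6.85 CPM, and the highest of them lies above the lowest control point, at 6.45 CPM. The Abscam points of all groups share a range.

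Nrx-1 averaged 5.53 ± 0.901 CPM at 250 ng/bee, against 9.30 ± 2.5 CPM in control brains (SD, n = 5 each). The log2 fold change was -0.74 ± 0.24 (SE, 95% interval -1.25 to -0.23), a ratio of 0.600 with an interval of 0.422 to 0.855. The unadjusted p of edgeR's quasi-likelihood test was 0.00745, position 225 of 9560 genes, and the adjusted p was 0.313, so Nrx-1 did not pass. Of all genes tested, 0.0% passed in this comparison, while 12.0% had an unadjusted p under 0.05 (1144 of 9560), 7.48% with a lower level; DESeq2 called 54 genes and limma-voom with sample weights 390. As 1 transcript carries the gene, the transcript test in limma used the same reads on the log2(FPKM + 0.1) scale and gave -0.66 ± 0.34 (SE, adjusted p = 0.997). Of 16556 transcripts, 0.0% passed in each comparison, and 4.42% at 250 ng/bee and 3.74% at 25 ng/bee had an unadjusted p under 0.05. In bulk RNA, fewer cells that express a gene and less RNA per cell cannot be told apart.

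After the lower dose, 25 ng/bee, Nrx-1 averaged 6.85 ± 2.24 CPM, against 9.30 ± 2.5 CPM in control brains (SD, n = 5 each). The log2 fold change was -0.43 ± 0.24 (SE, 95% interval -0.94 to 0.08; edgeR, adjusted p = 0.998). In this comparison 0.0% of genes passed and 2.46% had an unadjusted p under 0.05. Between the doses, at 250 against 25 ng/bee, the log2 fold change was -0.30 ± 0.24 (SE, 95% interval -0.82 to 0.21; edgeR, adjusted p = 0.974). There 0.0% of genes passed and 4.99% had an unadjusted p under 0.05. The mean levels of Nrx-1 therefore stood in the order control, 25 ng/bee, 250 ng/bee from high to low, and no pair of groups passed. The share of all genes with this order of means was not counted. The control libraries serve both dose comparisons.

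The slope of a gene's log2 deviation on log2 transcript length spanned 0.00295 to 0.0578 among control libraries, -0.0497 to 0.0624 after 25 ng/bee and -0.0562 to -0.0258 after 250 ng/bee, in log2 units per doubling of length. Longer transcripts were thus relatively lower in all 5 libraries at 250 ng/bee than in any control library, and both genes have longer transcripts than the median tested gene of 2112 nt. With a correction for transcript length the log2 fold change of Nrx-1 at 250 ng/bee was -0.61 (edgeR, adjusted p = 0.636). The summed neuronal markers were 404 to 558 CPM at 250 ng/bee, against 548 to 681 CPM in control brains, so the groups overlapped, and neither marker passed. Of 6 muscle genes 5 were tested and none passed (edgeR, adjusted p from 0.497 to 0.702). All 5 had a log2 fold change above 0, beside 44.4% of all tested genes, with overlapping summed levels of 186 to 1055 CPM at 250 ng/bee and 90.6 to 815 CPM in control brains. The part of the marker levels in the Nrx-1 values was not tested. Without replicate 1 at 250 ng/bee, which leaves only libraries of the 20190809 label, the Nrx-1 value was -0.71 (edgeR, adjusted p = 0.131), while 248 genes passed in that fit.

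Abscam had 68.6, 83.3, 82.8, 91.6 and 137 CPM in control replicates 1 to 5. It had 89.6, 117, 73.5, 79.3 and 105 CPM in replicates 1 to 5 at 25 ng/bee. It had 82.7, 87.1, 85.4, 84.7 and 79.1 CPM in replicates 1 to 5 at 250 ng/bee. The 5 values at 250 ng/bee all lay within the control range, and control replicate 5 was the highest library of the 15.

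Abscam averaged 83.8 ± 3.06 CPM at 250 ng/bee, against 92.6 ± 26.0 CPM in control brains (SD, n = 5 each). The log2 fold change was -0.14 ± 0.16 (SE, 95% interval -0.48 to 0.19; edgeR, adjusted p = 0.750). In the 25 ng/bee group Abscam averaged 92.9 ± 18.1 CPM, against 92.6 ± 26.0 CPM in control brains, with a log2 fold change of 0.01 ± 0.16 (SE, 95% interval -0.33 to 0.34; edgeR, adjusted p = 0.998). At 250 against 25 ng/bee it was -0.15 ± 0.16 (SE, 95% interval -0.49 to 0.19; edgeR, adjusted p = 0.975). These intervals bound the Abscam ratio at 0.716 to 1.14 for 250 ng/bee over the control and at 0.794 to 1.27 for 25 ng/bee over the control.

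**Figure D2:**
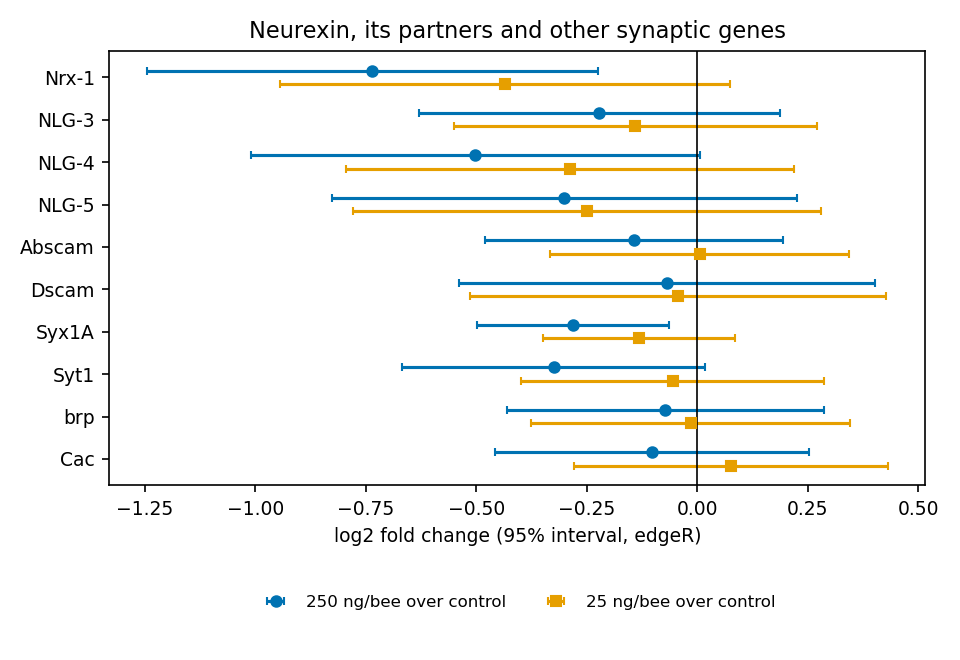
Log2 fold changes (horizontal axis) with 95% intervals of Nrx-1, Abscam, Dscam and the genes of the partner and release lists, for 250 ng/bee and 25 ng/bee over the control. The Nrx-1 interval at 250 ng/bee, -1.25 to -0.23, does not include 0, but its adjusted p of 0.313 did not pass.

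The neuroligins, the postsynaptic partners of neurexins, are listed as NLG-3, NLG-4 and NLG-5, all on chromosome 9. None passed in either comparison. In the edgeR fit of all 15 libraries, all 3 log2 fold changes were below 0 at both doses. Beside this, 55.6% of all tested genes were below 0 at 250 ng/bee and 52.2% at 25 ng/bee. The values of the 3 genes stayed below 0 in 24 of 24 alternative settings each. These settings reuse the same libraries, both doses share the controls, and the share of all genes that stayed below 0 was not counted. NLG-4 had 6.37, 7.83, 6.59, 6.39 and 10.8 CPM in replicates 1 to 5 at 250 ng/bee, against 8.10, 12.8, 14.3, 10.5 and 8.02 CPM in control replicates 1 to 5. As for Nrx-1, 4 of the 5 libraries at 250 ng/bee lay below every control library and the groups overlapped. The share of all tested genes so placed was not counted. NLG-4 averaged 7.61 ± 1.91 CPM at 250 ng/bee, against 10.7 ± 2.81 CPM in control brains (SD, n = 5 each), with a log2 fold change of -0.50 ± 0.24 (SE; edgeR, adjusted p = 0.418). NLG-3 averaged 13.7 ± 2.65 CPM at 250 ng/bee, against 16.1 ± 3.50 CPM in control brains, and its log2 fold change was -0.22 ± 0.19. NLG-5 averaged 5.33 ± 0.874 CPM at 250 ng/bee, against 6.59 ± 1.68 CPM in control brains, and its log2 fold change was -0.30 ± 0.25. With a length correction the values at 250 ng/bee were nearer to 0, at -0.077 for NLG-3, -0.36 for NLG-4 and -0.16 for NLG-5. The log2 fold changes at 25 ng/bee were -0.14 for NLG-3, -0.29 for NLG-4 and -0.25 for NLG-5. The median over the 3 genes was -0.30 at 250 ng/bee and -0.25 at 25 ng/bee, beside -0.03 and -0.01 over all genes tested.

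Of the presynaptic release list, 4 genes were matched and none passed. Syx1A, a syntaxin of the vesicle fusion complex, had 358 to 419 CPM at 250 ng/bee, against 430 to 573 CPM in control brains. These groups did not overlap, as was the case for 2.75% of all tested genes. Its log2 fold change was -0.28 ± 0.10 (SE; edgeR, adjusted p = 0.345). Syt1 gave -0.32 ± 0.16, while brp, an active zone scaffold, gave -0.07 ± 0.17 and Cac, a presynaptic calcium channel, gave -0.10 ± 0.17. With a length correction Syx1A gave -0.14 and Syt1 -0.19, and brp and Cac turned above 0, at 0.06 and 0.03; without replicate 1 at 250 ng/bee as well, Syt1 gave -0.085. Values at 25 ng/bee were -0.13 for Syx1A, -0.06 for Syt1, -0.01 for brp and 0.08 for Cac. The list of other adhesion genes matched no symbol in these tables. Dscam, added after its values were seen, averaged 104 ± 10.4 CPM at 250 ng/bee, against 109 ± 36.7 CPM in control brains (SD, n = 5 each), with a log2 fold change of -0.07 ± 0.22; with a length correction it was 0.07.

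Across the 15 libraries Nrx-1 and Abscam did not follow each other closely. Pearson's r of their log2 CPM was 0.276 and Spearman's rho 0.350, r without the 2 libraries farthest in Nrx-1 was 0.362, and r after removing group means was 0.244. With the neuroligins, Nrx-1 gave r = 0.365 for NLG-3 (rho = 0.475, 0.369 without the 2 farthest libraries, 0.227 after removing group means). For NLG-4 it gave r = 0.552 (rho = 0.529, 0.296 without the 2 farthest libraries, 0.345 after removing group means). For NLG-5 it gave r = 0.768, rho = 0.693, 0.630 without the 2 farthest libraries and 0.780 after removing group means. Abscam gave r = 0.681 for NLG-3 (rho = 0.621, 0.438 without the 2 farthest libraries), 0.242 for NLG-4 and 0.0469 for NLG-5. Abscam lay close to Dscam, with r = 0.836, rho = 0.657, 0.752 without the 2 farthest libraries and 0.864 after removing group means. The tested genes most like Nrx-1 by Pearson's r were LOC411199 (0.944), LOC413428 (0.944), LOC409137 (0.934), LOC408894 (0.924) and LOC414021 (0.920), with Spearman's rho from 0.857 to 0.964. Those most like Abscam were LOC408500 (0.918), LOC408845 (0.903), LOC726069 (0.900), brp (0.877) and LOC100577343 (0.866), with rho from 0.550 to 0.932. All 10 have longer transcripts than the median tested gene, from 3414 to 8376 nt. These values describe libraries that share their depth and length slope between genes, and they carry no p.

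The isoforms of Abscam were read as shares of the gene's summed FPKM in each library. The longest transcript, XM_016912485.2 with 31 exons and 11012 nt, held 63.2% on average and was the leading transcript in 13 of 15 libraries. XM_006558111.3, with 30 exons and 10745 nt, held 12.0%, and XM_006558108.3, with 30 exons and 10760 nt, held 8.20%, or 2.45% without control replicate 1. The short XM_026441101.1, with 11 exons and 3526 nt, ends at 1619914, before the other transcripts, and held 6.23%. The other 9 transcripts averaged at most 2.80%, of which 2 were listed at 0 in every library and 3 were above 0 in 1 library only. The 8 transcripts with 30 exons differ by at most 75 nt in length, and a share of 0 is given as the tables list it.

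**Figure D3:**
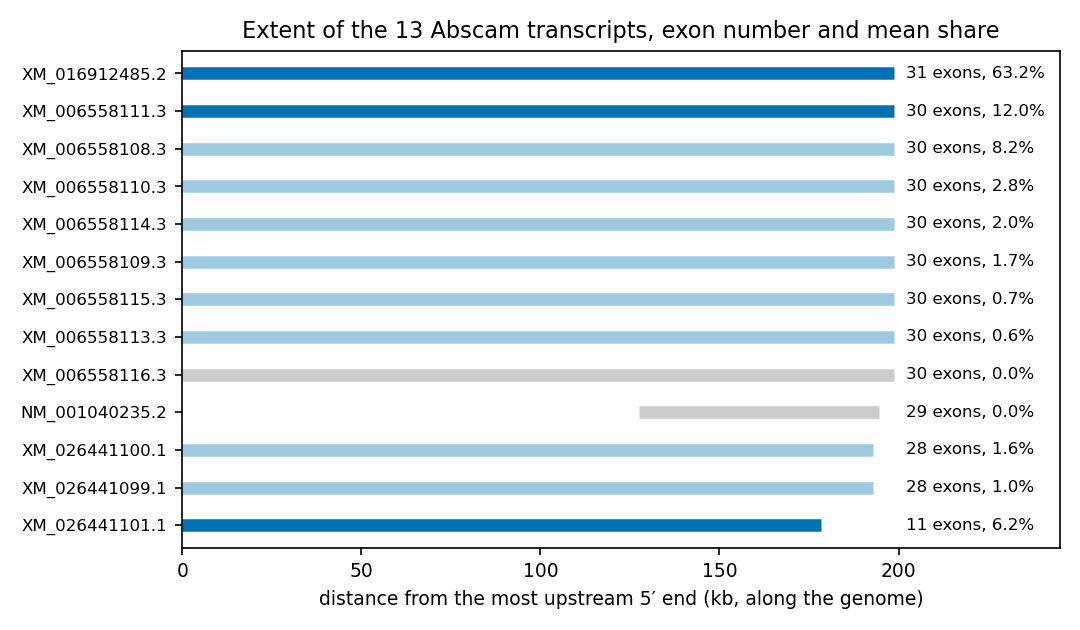
Extent of the 13 Abscam transcripts along the genome, drawn as distance in kb from the most upstream start (horizontal axis), with exon number and the mean share of the gene's summed FPKM over 15 libraries. Dark bars passed the filter on low values, light bars did not and grey bars were listed at 0; the 31-exon transcript holds 63.2% and the 11-exon transcript, which stops earlier, 6.23%.

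The share of the 31-exon transcript was 1.218%, 54.0%, 61.8%, 72.4% and 65.8% in control replicates 1 to 5. It was 89.1%, 72.7%, 63.5%, 67.6% and 77.2% in replicates 1 to 5 at 25 ng/bee. It was 69.6%, 0.0%, 86.8%, 87.7% and 79.0% in replicates 1 to 5 at 250 ng/bee. A single library in the control and a single one at 250 ng/bee were near or at 0, and the other libraries of all groups lay between 54.0% and 89.1%. In control replicate 1 the share sat in XM_006558108.3, at 88.7%. In replicate 2 at 250 ng/bee it sat in XM_006558111.3, at 38.0%, and in XM_006558114.3, at 30.5%, a transcript at 0 in all other libraries. In both libraries the reads were thus given to 30-exon transcripts, which together held 88.7% in the control library and 93.5% in the 250 ng/bee library.

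**Figure D4:**
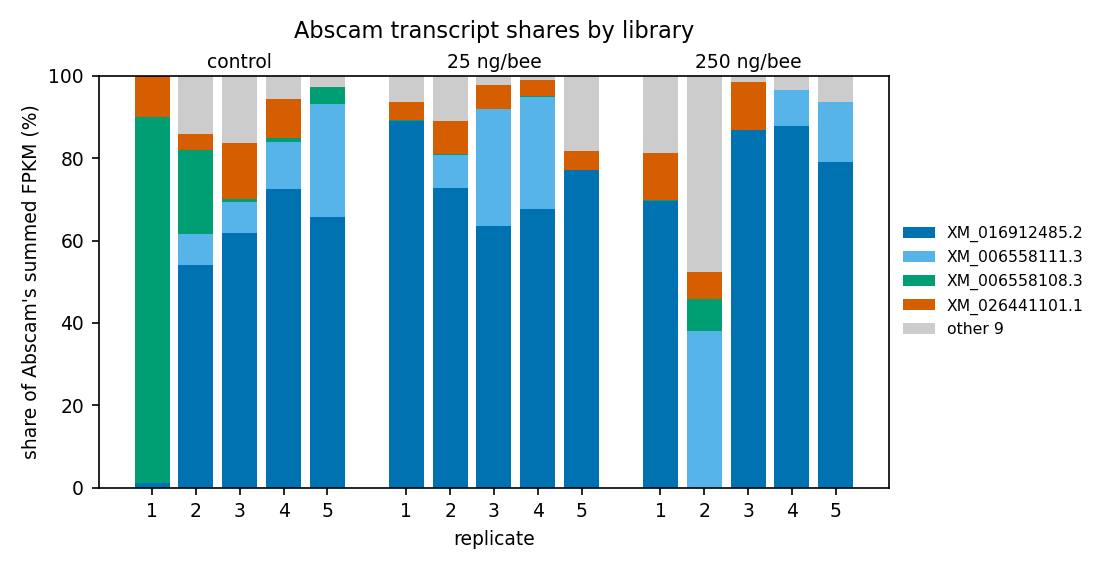
Shares of the Abscam transcripts, in percent of the gene's summed FPKM (vertical axis), in each of the 15 libraries (horizontal axis). The 31-exon transcript leads in 13 libraries, and control replicate 1 and replicate 2 at 250 ng/bee differ from the rest.

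The remaining transcripts with a mean share of at least 5% also varied between libraries. The share of XM_006558108.3 was 88.7%, 20.3%, 0.575%, 0.851% and 4.10% in control replicates 1 to 5. It was 0.140%, 0.136%, 0%, 0.198% and 0% in replicates 1 to 5 at 25 ng/bee, and 0.126%, 7.82%, 0%, 0.0873% and 0.0093% in replicates 1 to 5 at 250 ng/bee. Every library at 25 ng/bee thus lay below every control library, a separation found for 0.559% of 17544 transcript shares without the filter on low values, while the 250 ng/bee group overlapped the control. The separation rested on few reads, with 4.70 estimated reads in control replicate 3 and 1.66 in replicate 2 at 25 ng/bee. This transcript did not pass the filter. It reached a mean share of 5% only through control replicate 1, at 8.20% with that library and 2.45% without. As control values thus led to its choice, neither the separation nor the following test can serve as support for a difference. Tested without the filter, the log2 difference at 25 ng/bee from the control was -2.64 ± 0.95 (SE, limma, unadjusted p = 0.0146, adjusted p = 0.978). In that fit 0.0% of 18438 shares passed and 4.54% had an unadjusted p under 0.05.

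The share of XM_006558111.3 was 0%, 7.62%, 7.61%, 11.5% and 27.4% in control replicates 1 to 5. It was 0%, 8.11%, 28.4%, 27.2% and 0% at 25 ng/bee, and 0%, 38.0%, 0%, 8.77% and 14.7% at 250 ng/bee, in the same order of replicates. All groups held libraries at 0, and the groups overlapped. The share of the 11-exon transcript was 10.1%, 3.94%, 13.6%, 9.44% and 0% in control replicates 1 to 5. It was 4.29%, 8.08%, 5.76%, 3.91% and 4.59% at 25 ng/bee, and 11.6%, 6.49%, 11.7%, 0% and 0% at 250 ng/bee. These groups overlapped too.

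No Abscam isoform passed in either dose comparison. The share of the 31-exon transcript averaged 64.6% ± 36.9 at 250 ng/bee and 51.1% ± 28.7 in control brains (SD, n = 5 each), with a log2 difference of 0.06 ± 1.17 (SE; limma, adjusted p = 1.00). At 25 ng/bee it averaged 74.0% ± 9.88, with a log2 difference from the control of 1.15 ± 1.17 (SE, 95% interval -1.36 to 3.67; limma, adjusted p = 0.999). For XM_006558111.3 the log2 difference was -0.31 ± 1.25 at 250 ng/bee and -0.38 ± 1.25 at 25 ng/bee. For the 11-exon transcript it was -0.40 ± 0.89 at 250 ng/bee and 0.10 ± 0.89 at 25 ng/bee. Of the 10563 transcript shares tested, 0.0% passed in each comparison, and 4.73% at 250 ng/bee and 5.2% at 25 ng/bee had an unadjusted p under 0.05. The 31-exon transcript was above 0 in 14 of 15 libraries, XM_006558111.3 in 10 and the 11-exon transcript in 12.

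Sums over transcripts that share an end are less open to the split between near-identical isoforms. The 9 transcripts that end at 1640226 held 92.4% ± 8.40 of the summed FPKM at 250 ng/bee and 89.9% ± 10.3 in control brains (SD, n = 5 each). The log2 difference was 0.04 ± 0.08 (SE, 95% interval -0.13 to 0.21; limma, adjusted p = 0.978). At 25 ng/bee they held 91.4% ± 3.87, with a log2 difference of 0.03 ± 0.08 (SE, 95% interval -0.14 to 0.20; limma, adjusted p = 1.00). The full-length end thus held 73.1% to 100% of the signal in every library. The early end at 1619914 held 7.42% ± 5.41 in the control, 5.33% ± 1.69 at 25 ng/bee and 5.96% ± 5.83 at 250 ng/bee. Of the 2248 ends tested, 0.0% passed in each comparison, and 5.07% at 250 ng/bee and 5.29% at 25 ng/bee had an unadjusted p under 0.05. The 28-exon transcript XM_026441099.1, which ends at 1634367, was above 0 in 3 of 5 libraries at 25 ng/bee and in no other library. Its shares there were 3.58% to 6.17%, and it did not pass the filter. Without the filter, the log2 difference of its share at 25 ng/bee from the control was 1.496 ± 0.4435 (SE, limma, unadjusted p = 0.004677, adjusted p = 0.9784). It did not pass in that fit, where 4.54% of 18438 shares had an unadjusted p under 0.05. The transcript is named for being above 0 in the 25 ng/bee group alone. Its test on the same values can therefore not serve as support for a difference. All transcripts above 0 start within 2 bases of each other, so no test of start sites was possible.

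The effective number of isoforms, the exponential of the Shannon entropy of the shares, summarises how evenly Abscam's transcripts were used. It was 2.5 ± 1.33 at 250 ng/bee and 2.68 ± 0.880 in control brains (SD, n = 5 each), with a log2 difference of -0.17 ± 0.31 (SE; limma, adjusted p = 0.982). It was 2.26 ± 0.452 at 25 ng/bee, with a log2 difference from the control of -0.20 ± 0.31 (SE; limma, adjusted p = 0.989). In these comparisons 0.0% of 3547 genes passed at 250 ng/bee and 0.0282% at 25 ng/bee, with 5.69% at 250 ng/bee and 5.5% at 25 ng/bee at an unadjusted p under 0.05. The number of Abscam transcripts above 0 was 3 to 6 for the control, 4 to 8 for 25 ng/bee and 3 to 7 for 250 ng/bee.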

How the data were processed

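Gene counts and transcript values were analysed for 15 libraries, 5 per group, grouped by sample title. Libraries were made with a stranded poly-A kit, per the labels' protocols. Tools per the submitters' processing notes were StringTie 2.0.2, HISAT2 2.1.0, DESeq2 1.22.2, Trimmomatic 0.39 and SAMtools 1.7, with genome build and strand setting not given in the sources used here. Gene values deposited by the authors are estimated counts: each equals the transcripts' summed coverage times length divided by 75 (read length), to within 1 count in 100% of genes. The authors deposited transcript FPKM and coverage (signal) per library, per the file headers. All 12112 gene names matched the Amel_HAv3.1 table.

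Rounded counts were tested in edgeR 4.0.16 (quasi-likelihood, TMM, filterByExpr, 15 libraries in 1 fit). FPKM, shares, end shares and effective isoform numbers were tested in limma 3.58.1 on the log2 scale, with a pseudocount of 0.1 FPKM and a filter of 0.5 FPKM in 5 libraries; ends within 100 bases were grouped. P-values were adjusted over all features (Benjamini-Hochberg, two-sided, threshold 0.05). Scripts were tested on simulated data. Transcripts with a mean share of at least 5% are given in full, with all matched list genes and the 5 genes of highest r. The 2 genes and the lists were chosen with earlier results of these data known. DESeq2 1.42.0, limma-voom with sample weights, another scaling, no filter, a length correction, a replicate block, pseudocounts of 0.01 and 1, and leaving out libraries were tried in R 4.3.3.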

Additional observations from a re-analysis of the deposited data

Results flagged for a closer look

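Within groups of 5, 4 of the 36 sets of values examined held a library far from the rest by Dixon's criterion, which chance gives in about 1 in 20 sets. All 4 concern the Abscam isoform shares of 2 libraries. Shares of a gene within a library depend on each other, so the low and the high share of a library are not separate events. Their count is therefore not to be set against the rate of 1 in 20. In replicate 2 at 250 ng/bee the 31-exon transcript XM_016912485.2 held 0.0% of the gene's summed FPKM, the lowest of its group, and the 30-exon transcript XM_006558108.3 held 7.82%, the highest. In control replicate 1 the 31-exon transcript held 1.218%, the lowest of its group, and XM_006558108.3 held 88.7%, the highest. The gene's level in these libraries was 87.1 CPM in replicate 2 at 250 ng/bee and 68.6 CPM in control replicate 1, and the share of the full-length end was 93.5% in replicate 2 at 250 ng/bee and 89.9% in control replicate 1.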

How the results depend on the processing

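Nrx-1 at 250 ng/bee over the control kept a log2 fold change below 0 in 24 of 24 alternatives, from -0.85 to -0.55, with adjusted p from 0.0863 to 0.636 (not given by DESeq2); the lowest in size came without control replicate 2. Leave-one-out values for Nrx-1 were -0.85 to -0.55 (250 ng/bee), -0.57 to -0.28 (25 ng/bee) and -0.42 to -0.17 (250 against 25 ng/bee). Genes called at 250 ng/bee numbered 0 in edgeR, 54 in DESeq2, 390 in limma-voom with sample weights (used so throughout), 0 to 248 on leaving out 1 library (248 without replicate 1 and 2 without replicate 3 at 250 ng/bee) and 65 with a length correction without replicate 1, an alternative chosen after seeing the data. The cause was not tested.

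Same-numbered libraries had deviations correlated at -0.054 to 0.237 over 15 pairs, 4 of them over 0.1, so the numbers were not read as pairs. With the replicate block 0 genes were called, Nrx-1 at 250 ng/bee was -0.71 (edgeR, adjusted p = 0.243) and Abscam -0.11.

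Abscam at 250 ng/bee was -0.052 in limma-voom, -0.014 with length correction and 0.0082 with length correction and block. Leaving out 1 library gave Abscam -0.23 to 0.039 (250 ng/bee) and -0.091 to 0.19 (25 ng/bee). At 250 ng/bee, limma-voom, length correction, length correction with block and length correction without replicate 1 gave 0.096, 0.063, 0.076 and 0.074 for brp, 0.020, 0.026, 0.019 and 0.10 for Cac, and 0.092, 0.075, 0.12 and 0.10 for Dscam. At 25 ng/bee brp gave 0.11, 0.022, 0.024 and 0.023 in that order, and Dscam 0.074 in limma-voom. Over all alternatives at 250 ng/bee the values ran from -0.32 to -0.057 for NLG-3, -0.66 to -0.31 for NLG-4, -0.40 to -0.14 for NLG-5, -0.31 to -0.14 for Syx1A and -0.41 to -0.085 for Syt1. Leave-one-out ranges at 250 ng/bee were -0.18 to 0.056 for brp, -0.17 to 0.0039 for Cac and -0.20 to 0.13 for Dscam. At 25 ng/bee they were -0.12 to 0.11 for brp, -0.056 to 0.21 for Cac, -0.21 to 0.16 for Dscam and -0.16 to 0.025 for Syt1.

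A pseudocount of 1 gave 0.10 for the level of XM_016912485.2 and 0.021 for the share of XM_006558111.3 at 250 ng/bee, and at 25 ng/bee -0.062 for the level and -0.054 for the share of XM_026441101.1, which is also the end at 1619914. The share of XM_016912485.2 at 250 ng/bee was -0.43 with a pseudocount of 0.01 and -0.53 as a share of reads. Leave-one-out ranges at 250 ng/bee were -0.88 to 1.28 for the share and -0.99 to 1.14 for the level of XM_016912485.2, -0.98 to 0.27 and -1.09 to 0.19 for XM_006558111.3, -1.12 to 0.11 for the share of XM_026441101.1 and -0.030 to 0.091 for the end at 1640226. At 25 ng/bee they were -1.06 to 0.28 and -1.08 to 0.20 for XM_006558111.3, -0.63 to 0.42 and -0.49 to 0.35 for XM_026441101.1, and -0.042 to 0.069 for the end at 1640226. No transcript or isoform result passed in any alternative. The lowest adjusted p in limma was 0.662 for the Nrx-1 transcript and 0.847 for Abscam, the level of XM_026441101.1, both at 250 ng/bee. In both comparisons with the 25 ng/bee group 0 genes were called in all 24 alternatives. No alternative for start sites could be run, since 1 start group alone was above 0.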
